A study of Homo sapiens with 6 samples.

Results

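The genes that load peptides onto major histocompatibility complex (MHC) class I and class II molecules and bring them to the cell surface were examined in PC9 drug-tolerant persisters (DTPs) and parental PC9 cells. The list held 33 genes, of which 31 were measured by a probe set that the array annotation assigns to a single gene. These were 17 genes of the class I pathway, 13 of the class II pathway and RFX5, which acts on both, and they were covered by 83 of the 54613 probe sets tested (31 of 19775 genes). PSME2 and IFI30 were not measured by a probe set of 1 symbol.

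PC9 is a non-small cell lung cancer line with an activating EGFR mutation, and DTPs are the few cells that remain under a lethal dose of an EGFR inhibitor. There were 3 DTP arrays, from PC-9 cells under 2 µM erlotinib for 9 days, and 3 parental arrays, from PC-9 cells under DMSO. The cells of all 6 arrays carried the same GFP vector. The protocol labels place the start of drug at 80% confluency and the harvest of DTPs on day 10, and the harvest of parental cells on day 3 at 100% confluency, whereas the design text gives 9 days for both. Drug, time in culture and cell density therefore cannot be told apart in these values.

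Class I molecules consist of an HLA heavy chain and β2-microglobulin, are made by nearly all nucleated cells, and show peptides from proteins cut by the proteasome to CD8+ T cells. Interferons exchange the catalytic subunits of the proteasome for those of the immunoproteasome and raise the peptide transporter, the loading chaperones and the heavy chains, in part through the transcriptional activator NLRC5. Class II molecules show peptides cut in endosomes to CD4+ T cells, are made mainly by professional antigen-presenting cells, and depend on the transcriptional activator CIITA, which epithelial cells make under interferon-γ.

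Values are log2 intensities, and a fold change is the DTP mean over the parental mean on that scale. A gene was called when limma gave an adjusted p under 0.05, over all genes, with a fold above 1.5, and each gene was read from its brightest probe set without the suffix _x_at where it had one. That suffix marks probe sets with probes that also match other transcripts. Nothing in the labels says that the arrays of a group came from separate cultures, so the p-values rest on the spread between arrays, which may be technical. Arrays of a group correlated at 0.997 to 0.998 over all probe sets, and arrays of different groups at 0.970 to 0.975. The 3′ minus 5′ signal of GAPDH was -0.178 to -0.173 in DTPs and -0.169 to -0.138 in parental cells, and that of actin was 0.026 to 0.082 in DTPs and 0.142 to 0.192 in parental cells (log2). The part of RNA quality in the results was not tested.

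Most measured genes of the class I pathway were called higher in DTPs, and most of the class II pathway were not called. Of 17 measured class I genes, 12 were called higher, none lower and 5 neither, whereas 2 of 13 class II genes were called higher, none lower and 11 neither. Over all genes, 8.08% were called higher and 6.13% lower. Both group means were below 7.29, the median of all values, for 1 of the 17 class I and 6 of the 13 class II genes. Of the others, 12 of 16 class I genes and 2 of 7 class II genes were called higher. Among all genes the share called higher was 1.76% for those below that median in both groups and 11.3% for the rest. By limma's unadjusted p under 0.05, 4 class II genes and 0 class I genes were lower. A test without moderated variances gave 1 and 0 such genes. The share of all genes at unadjusted p was not counted, so no conclusion on class II is drawn from these counts. At limma's adjusted p under 0.05 with no fold minimum, 2 class II genes and 0 class I genes were lower. The same held for 4754 of all 19775 genes. The median log2 fold change was 0.80 for class I genes, -0.03 for class II genes and -0.05 for all genes. With each array centred on its spike-ins, or on its ribosomal protein genes, the class II median was 0.11 and the median of all genes 0.09.

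**Figure D1:**
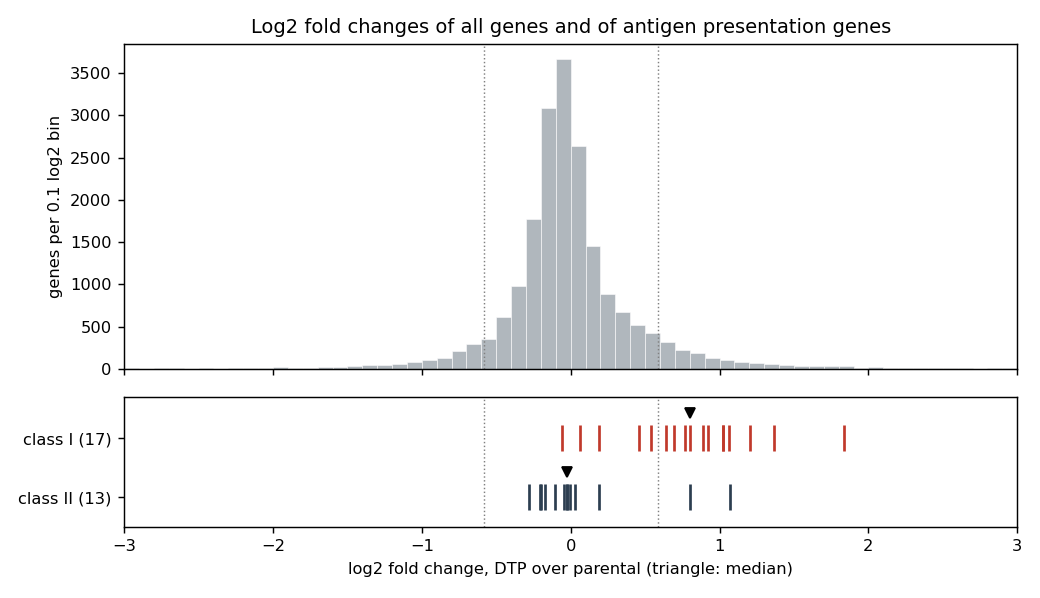
Upper panel: number of genes (y axis) per 0.1 bin of log2 fold change, DTP over parental (x axis), over all 19775 genes, of which 72 lie more than 3 from 0 and are not drawn. Lower panel: each mark is a class I or a class II gene, triangles are the medians (0.80 for class I and -0.03 for class II) and dotted lines are the fold minimum of 1.5.

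The separation was seen on every array. Relative to each gene's parental mean, the median over the 17 class I genes was 0.77, 0.81 and 0.87 on DTP arrays 1, 2 and 3, and -0.0085, -0.0021 and 0.026 on parental arrays 1, 2 and 3. Every DTP array was above every parental array for 14 of the 17 class I genes, against 23.9% of all genes. The same held for 3 of the 13 class II genes, and 3 others had every DTP array below every parental array, which 29.8% of all genes had. The calls were spread over the genome: on chromosome 6, which holds the MHC, 7 of 10 measured class I genes and 1 of 10 class II genes were called higher, and on other chromosomes 5 of 7 and 1 of 3.

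**Figure D2:**
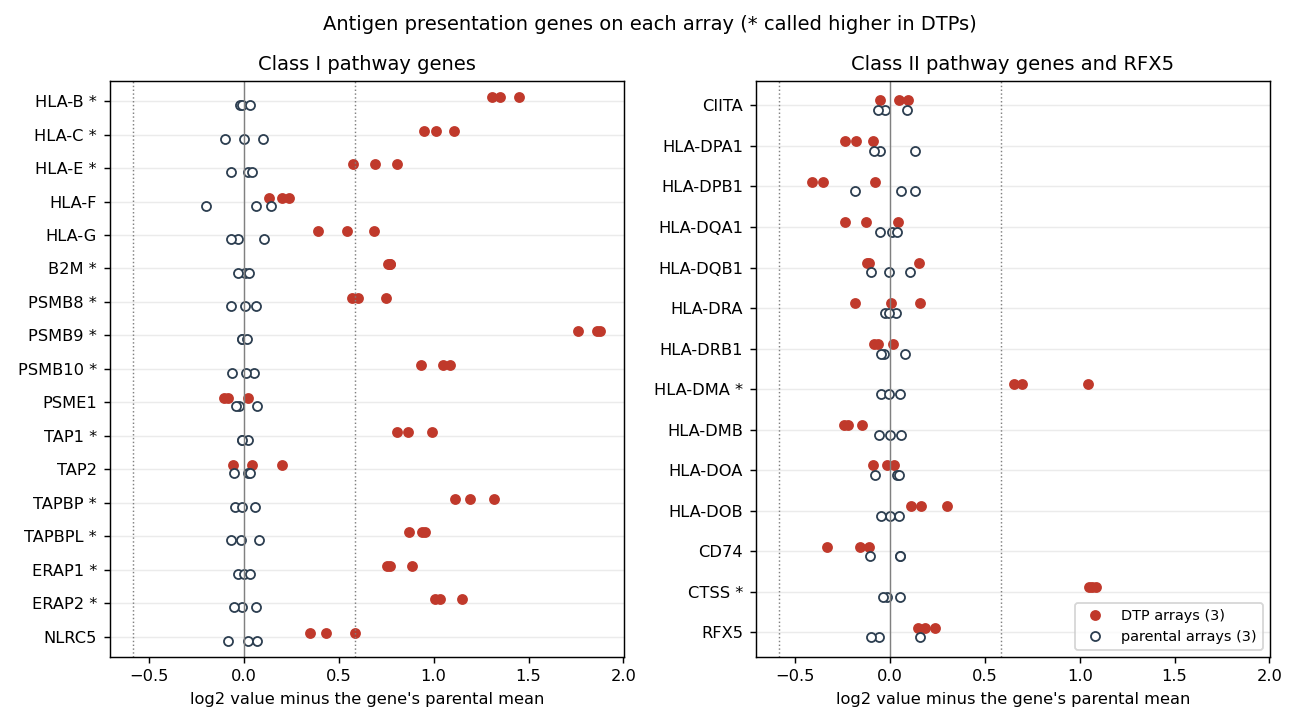
Each row is a gene and each point an array: its log2 value minus the gene's parental mean (x axis), filled for the 3 DTP arrays and open for the 3 parental arrays. Asterisks mark called genes and dotted lines the fold minimum; in the class I panel only HLA-F, PSME1 and TAP2 have overlapping groups.

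The promoters of the measured genes are shown because both pathways are known for short shared elements at their start sites. Promoter sequences of 250 bases before to 50 after the start (RefSeq, GRCh38.p14) were matched for 28 of the 33 genes, and 4 motifs were searched on both strands. The letters TTTCNNTTT (AAANNGAAA on the other strand), the core of interferon-stimulated response elements, were found for 11 of 16 class I genes, 1 of 11 class II genes and RFX5, and for 12.6% of 27305 genes (10.5% of 35116 promoters). In the windows below the matching letters are in capitals, B2M, TAP1, PSMB10, TAPBP and ERAP2 being genes called higher, and TAP2 and PSME1 genes that were not.
B2M: taagaaaaggAAACTGAAAacgggaaagtc
TAP1: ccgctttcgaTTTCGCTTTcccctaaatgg
PSMB10: ggtaaaggcgAAAGCGAAAgcaggaagtac
TAPBP: gaggaaagtgAAAGTGAAAggaggaagagg
ERAP2: cttagaacagAAAGTGAAAgcaaaagtaaa
TAP2: tggggaagcgAAAGCGAAAgctgcccgagc
PSME1: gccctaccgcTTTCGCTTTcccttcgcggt

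These windows lie at chr15:44711370-44711399 (plus strand) for B2M, chr6:32853813-32853842 (minus) for TAP1, chr16:67936851-67936880 (minus) for PSMB10, chr6:33314072-33314101 (minus) for TAPBP, chr5:96876461-96876490 (plus) for ERAP2, chr6:32838777-32838806 (minus) for TAP2 and chr14:24136189-24136218 (plus) for PSME1. In B2M, TAP1 and TAPBP a second match overlaps the one shown. Of the 10 measured class I genes with these letters 7 were called higher, and of the 5 without them 4 were (HLA-B, HLA-C, PSMB9 and TAPBPL). A match is a description of the letters and not of a bound factor.

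The letters GATTGG are an inverted CCAAT box, as in the Y box of class II promoters, and were searched on either strand. They were found for 5 of 16 class I genes, namely the heavy chains HLA-B, HLA-C, HLA-F and HLA-G and the light chain B2M. In these heavy chains the gene's strand reads CCAATC, an upright CCAAT box, and in B2M it reads GATTGG. The letters were also found for 7 of 11 class II genes and RFX5, and for 17.9% of all genes (15.1% of promoters). Of the measured genes that hold them, 3 of 5 in class I and 1 of 7 in class II were called higher, and of those without them 8 of 10 in class I and 0 of 3 in class II. The windows of 2 heavy chains called higher, of HLA-DRB1, which was not called, and of HLA-DMA, which was, are shown with these letters in capitals.
HLA-B: tatctagagaagCCAATCagcgtcgccgcg
HLA-C: gttctagagaagCCAATCagcgtctccgca
HLA-DRB1: aactcagatgctGATTGGttctccaacacg
HLA-DMA: ctacgcttctctGATTGGtttagacaaaat

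They lie on the minus strand at chr6:31357218-31357247 for HLA-B, chr6:31272131-31272160 for HLA-C, chr6:32589878-32589907 for HLA-DRB1 and chr6:32953160-32953189 for HLA-DMA. The letters AGCAAC, part of the X box, were found for 1 of 16 class I genes, 4 of 11 class II genes and RFX5, and 15.4% of all genes (12.8% of promoters). The letters TTCNNNGAA of a gamma-activated site were found for PSMB8 and TAP1 in class I, HLA-DQA1 in class II, and 9.38% of all genes (7.66% of promoters).

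Among the molecules that carry the peptide, 4 of 6 were called higher. HLA-B, a classical heavy chain, measured 13.03, 13.13 and 12.99 in DTPs and 11.66, 11.67 and 11.71 in parental cells, a log2 fold change of 1.37 ± 0.07 (SE, adjusted p = 5.19e-09). HLA-C, the other classical heavy chain listed, was 12.94, 13.03 and 12.88 in DTPs and 11.83, 11.93 and 12.03 in parental cells (1.02 ± 0.08, adjusted p = 2.27e-07). HLA-E, a nonclassical chain read by natural killer cell receptors, was 10.68, 10.80 and 10.56 in DTPs and 9.92, 10.01 and 10.03 in parental cells (0.69 ± 0.08, adjusted p = 8.66e-06). In all 3 the lowest DTP array was above the highest parental array, but HLA-E was not called by its brightest probe set, an _x_at set at 0.53. HLA-B and HLA-C had only _x_at probe sets, so that signal of near-identical heavy chains cannot be told apart in either.

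B2M, the light chain that every class I molecule needs, was 14.26, 14.27 and 14.27 in DTPs against 13.50, 13.47 and 13.52 in parental cells, a log2 fold change of 0.77 ± 0.06 (adjusted p = 6.23e-07). The DTP arrays were nearly alike and all above the parental ones. A second B2M probe set was called too, at 0.61, whereas the third, which was dim (below 7.29, the median of all values, in both groups), was at -0.02, and the call was lost with the mean of all 3 sets.

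The 2 remaining heavy chains depended on the probe set. HLA-G, nonclassical and best known from the placenta, was 12.12, 12.26 and 11.96 in DTPs and 11.54, 11.68 and 11.50 in parental cells, 0.54 ± 0.09 and so below the fold minimum (adjusted p = 0.0002), without overlap. Its other 3 probe sets were called higher at 0.74 to 0.86, and all 4 are _x_at sets. The set read here was called without DTP array 3 or without parental array 2. HLA-F, nonclassical, was at 0.19 ± 0.09 (adjusted p = 0.102) by its only probe set without the suffix, which was dim, and at 0.89 and 0.95, both called higher, by its 2 _x_at sets.

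The catalytic subunits of the immunoproteasome were all called higher. PSMB9 had the largest change of the 31 measured genes, at 9.06, 9.18 and 9.16 in DTPs and 7.29, 7.29 and 7.32 in parental cells, a log2 fold change of 1.84 ± 0.07 (3.57-fold, adjusted p = 2.96e-10). PSMB10 was 9.27, 9.39 and 9.42 in DTPs and 8.39, 8.35 and 8.27 in parental cells (1.02 ± 0.07, adjusted p = 1.24e-07). PSMB8 was 10.67, 10.70 and 10.85 in DTPs and 10.11, 10.03 and 10.16 in parental cells (0.64 ± 0.07, adjusted p = 1.26e-05). None of the 3 genes had overlapping groups. PSME1, a subunit of the proteasome activator that interferon-γ also raises, was 11.24, 11.26 and 11.36 in DTPs and 11.32, 11.30 and 11.41 in parental cells, with overlap and no call (-0.06 ± 0.07, adjusted p = 0.543).

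The constitutive subunits that these 3 replace were not called. Log2 fold changes were -0.09 for PSMB6, which PSMB9 replaces, 0.11 for PSMB7, which PSMB10 replaces, and -0.03 for PSMB5, which PSMB8 replaces. None of the 14 measured genes of the constitutive proteasome core and PSME3 was called by the set read here, and their median was 0.10. Further probe sets of PSMA5, at 1.14 (adjusted p = 3.46e-06), and of PSME3, at 0.67 (adjusted p = 1.67e-05), were called higher by limma. Of the 14 genes, 8 had every DTP array above every parental array and 2 every one below, against 23.9% and 29.8% of all genes. Within each array, the change of PSMB9 exceeded that of PSMB6 by 1.88, 2.01 and 1.88 in DTPs and by -0.01, -0.02 and 0.03 in parental cells. The mean difference, DTP minus parental, was 1.92 for this pair, 0.91 for PSMB10 and PSMB7, and 0.67 for PSMB8 and PSMB5. With 3 arrays against 3 the exact two-sided permutation test cannot give a p below 0.1, which each of the 6 gene pairs compared reached (adjusted p = 0.1). The pairs were chosen with results of these data known, so no conclusion is drawn from that p for any pair.

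Peptide transport was split between the subunits of the transporter. TAP1 was 9.03, 8.97 and 9.15 in DTPs and 8.16, 8.18 and 8.15 in parental cells (0.89 ± 0.07, adjusted p = 4.08e-07), with all DTP arrays above. Its partner TAP2 was 9.08, 9.18 and 9.34 in DTPs and 9.16, 9.17 and 9.09 in parental cells (0.06 ± 0.08, adjusted p = 0.553), and the groups overlapped. The 4 TAP2 probe sets ranged from -0.07 to 0.24 and none was called, and the change of TAP1 exceeded that of TAP2 by 0.83.

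The chaperones that edit the peptides of class I molecules were called higher. TAPBP (tapasin) was 11.51, 11.64 and 11.43 in DTPs and 10.27, 10.31 and 10.38 in parental cells (1.21 ± 0.07, adjusted p = 3.62e-08). TAPBPL, a tapasin relative that also edits peptides, was 8.84, 8.86 and 8.77 in DTPs and 7.84, 7.99 and 7.89 in parental cells (0.92 ± 0.07, adjusted p = 2.53e-07). All 3 TAPBP and both TAPBPL probe sets were called higher, and the groups did not overlap in any. Of 4 general endoplasmic reticulum helpers of loading, CALR (calreticulin) alone was called higher, at 0.72, and not with the mean of its probe sets or with the brightest, and the median of the 4 was -0.11.

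The aminopeptidases that trim peptides in the endoplasmic reticulum were both called higher. ERAP2 was 10.67, 10.81 and 10.70 in DTPs and 9.72, 9.65 and 9.61 in parental cells (1.06 ± 0.07, adjusted p = 7.93e-08), and 4 of its 5 probe sets were called. ERAP1 was 8.58, 8.57 and 8.70 in DTPs and 7.78, 7.81 and 7.84 in parental cells (0.80 ± 0.07, adjusted p = 7.63e-07). All DTP arrays were above all parental arrays for both genes, but 2 of 5 ERAP1 probe sets were called and the other 3 were between -0.37 and 0.10, and with the mean of its sets ERAP1 was not called (0.23). None of 6 cytosolic peptidases was called, and their median was 0.06.

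NLRC5, the activator of class I genes, was 8.10, 8.18 and 8.33 in DTPs and 7.77, 7.66 and 7.81 in parental cells, a log2 fold change of 0.46 ± 0.08 (1.37-fold, adjusted p = 0.000385). The groups did not overlap, but the fold was below the minimum. RFX5, a subunit of the complex that binds the X box, was 9.58, 9.62 and 9.67 in DTPs and 9.59, 9.38 and 9.33 in parental cells (0.19 ± 0.08, adjusted p = 0.0684), with overlap, and its other probe set was at -0.06. None of 6 partners of RFX5 at MHC promoters was called by the set read here, with a median of -0.13. Of the 6, 1 had every DTP array above every parental array and 2 every one below. The latter included RFXAP, at -0.56 (adjusted p = 0.000182), below the fold minimum. A further NFYA probe set was called higher at 0.63.

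In the class II pathway the activator and the chains themselves showed no call. CIITA was 7.995, 8.04 and 7.90 in DTPs and 7.92, 7.88 and 8.04 in parental cells (0.03 ± 0.07, adjusted p = 0.773). Its other 2 probe sets, dim in both groups, were at -0.19, with every DTP array below every parental array, and at -0.01. HLA-DRA, the alpha chain of HLA-DR, which varies little between people, was 6.97, 6.81 and 6.62 in DTPs and 6.84, 6.78 and 6.80 in parental cells (-0.01 ± 0.09, adjusted p = 0.951). By the sets read here CIITA and HLA-DRA had overlapping groups. The 6 alpha and beta chains ranged from -0.28 for HLA-DPB1 (adjusted p = 0.0412, below the fold minimum) to -0.01 for HLA-DRA, and 5 of the 6 were below the median of all values in both groups. CD74, the invariant chain that fills the class II groove until the endosome, was 7.73, 7.78 and 7.55 in DTPs and 7.94, 7.78 and 7.94 in parental cells (-0.20 ± 0.08, adjusted p = 0.058). The other 2 CD74 probe sets, dim in both groups, were at -0.03 and 0.07.

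The 2 class II genes called higher act in the endosome. CTSS (cathepsin S), the protease that removes the invariant chain, was 7.69, 7.66 and 7.67 in DTPs and 6.59, 6.57 and 6.66 in parental cells, a log2 fold change of 1.07 ± 0.06 (adjusted p = 3.6e-08). HLA-DMA, a chain of the DM heterodimer that exchanges the invariant chain remnant for peptide, was 7.94, 8.29 and 7.90 in DTPs and 7.20, 7.24 and 7.30 in parental cells (0.80 ± 0.10, adjusted p = 1.91e-05). Neither had overlapping groups, and array 2 was the highest of the DTP arrays for HLA-DMA. A further CTSS probe set with the suffix _x_at was called at 1.69, although dim in both groups, and the third was at 0.24.

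The 3 genes whose products work with HLA-DMA were not called. HLA-DMB, the other chain of DM, was 7.07, 6.97 and 6.99 in DTPs and 7.27, 7.16 and 7.21 in parental cells (-0.20 ± 0.07, adjusted p = 0.0266, below the fold minimum), with every DTP array below. The change of HLA-DMA exceeded that of HLA-DMB by 1.00. HLA-DOA and HLA-DOB form the DO heterodimer that restrains DM. HLA-DOA was at -0.03 with overlapping groups, and HLA-DOB at 0.19 ± 0.07 (adjusted p = 0.0481, below the fold minimum), with every DTP array above every parental array.

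**Figure D3:**
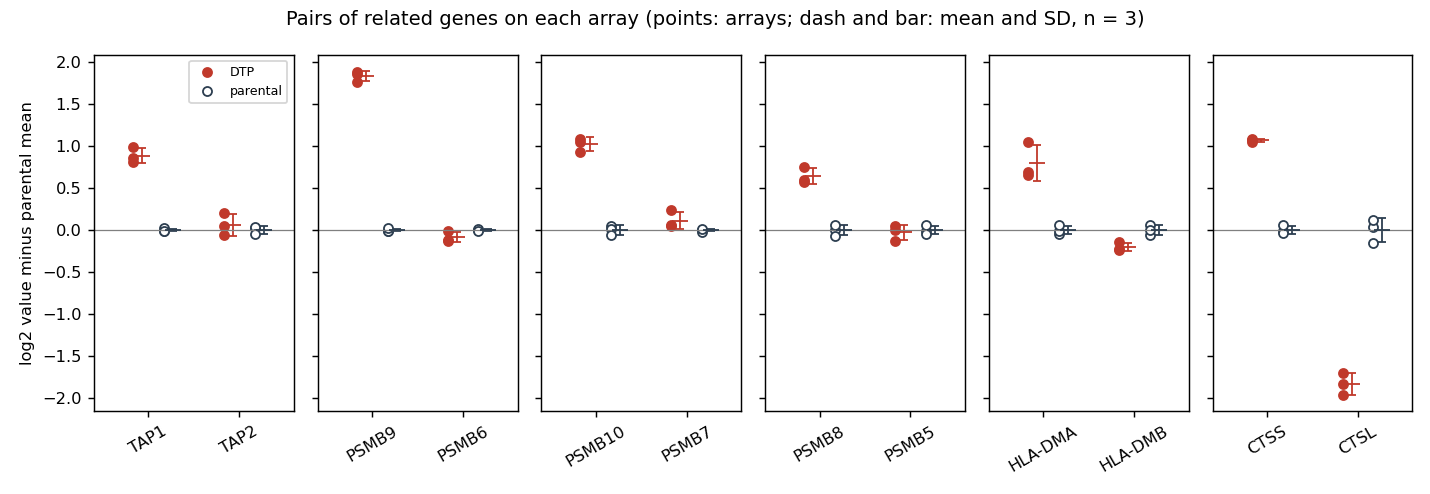
Each panel sets a gene beside a related gene: points are the log2 value of an array minus the gene's parental mean (y axis), filled for DTPs on the left and open for parental cells on the right, with dash and bar for mean and SD (n = 3). In the DTPs TAP1, PSMB9, PSMB10, PSMB8, HLA-DMA and CTSS lie above the parental arrays, and CTSL lies below them.

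Other endosomal proteases changed in both directions: of 6, CTSH (cathepsin H) was called higher at 1.88, CTSL (cathepsin L), which removes the invariant chain in thymic epithelium of the mouse, was called lower at -1.84, and the other 4 were not called. Of these other 4, CTSB (cathepsin B) was called higher by a further probe set, at 0.66. The change of CTSS exceeded that of CTSL by 2.91.

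PC9 cells are epithelial, and 5 of 5 epithelial markers were bright on all arrays with none called. Of these 5, 3 had every DTP array above every parental array and 2 every one below. They ranged from -0.19 for EPCAM (adjusted p = 0.0317) to 0.45 for KRT8 (adjusted p = 0.000237). The summed epithelial signal was 16.1 to 16.14 in DTPs and 15.96 to 15.99 in parental cells (log2). Of 12 leukocyte and antigen-presenting cell markers 10 were measured, none was called, and 5 were below the median of all values. Their summed signal was 11.33 to 11.55 in DTPs and 11.41 to 11.48 in parental cells (log2). The brightest of them, LAPTM5, a lysosomal membrane protein of blood cells, was 10.62, 10.48 and 10.92 in DTPs and 10.76, 10.66 and 10.77 in parental cells, with overlap. The defining leukocyte marker PTPRC (CD45), which was dim, was 5.27, 5.43 and 5.26 in DTPs and 5.32, 5.34 and 5.42 in parental cells, also with overlap. CSF1R at 0.55 (adjusted p = 3.78e-05) and CD14 at 0.34 (adjusted p = 0.00264), markers of monocytes and macrophages, had every DTP array above every parental array, below the fold minimum. On the same list AIF1 at -0.25 (adjusted p = 0.0269) and CD3E at -0.17 (adjusted p = 0.114) had every DTP array below every parental array. Of the 10 measured markers 4 had a positive and 6 a negative log2 fold change, with a median of -0.05. The part of these markers in the results was not tested. In bulk RNA, fewer cells of a type and less RNA per cell cannot be told apart.

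Over single probe sets, 34 of 83 were called higher, none lower and 49 neither, where 7.56% of all probe sets were called higher and 4.93% lower. In class I these were 31 of 45, and in class II 3 of 36. The suffix _x_at was carried by 24 of the 83, of which 14 were called, against 20 of the 59 without it. In class I, 13 of 15 _x_at sets and 18 of 30 others were called. HLA-B, HLA-C and HLA-G had no probe set without the suffix, and the only one of HLA-F, which was dim, was not called. The 7 probe sets that list a member beside another symbol were not called.

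**Figure D4:**
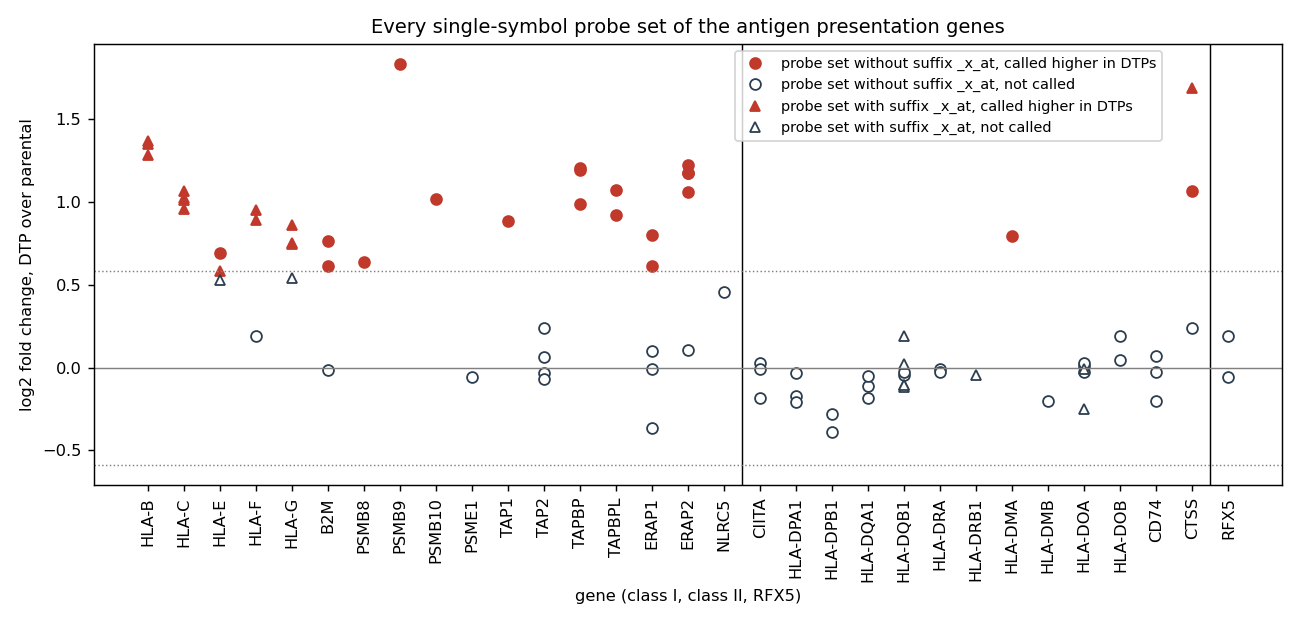
Log2 fold change, DTP over parental (y axis), of each of the 83 probe sets by gene (x axis; class I, class II and RFX5 divided by lines): triangles carry the suffix _x_at, filled symbols were called higher and dotted lines are the fold minimum. The 31 called class I probe sets span most genes of the pathway, and the 3 called in class II belong to HLA-DMA and CTSS.

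Among genes of interferon signalling, which control both pathways, 4 of 16 measured were called higher and 1 lower, and their median log2 fold change was 0.35. IFNAR2, a chain of the type I interferon receptor, was at 1.13, IFNGR1, the ligand-binding chain of the interferon-γ receptor, at 0.90, and IRF1, a transcription factor that binds the response element above, at 0.84. IRF9, a subunit of a complex that binds the same element, was at 0.77, and PTPN2, a phosphatase that restrains JAK signalling, was called lower at -0.81, these, and IFNGR2, being named after their values were seen. IFNGR2, the other chain of the interferon-γ receptor, was at -0.44 with every DTP array below every parental array (adjusted p = 0.000101), below the fold minimum. IFNAR2 was at 0.04 by its brightest probe set and not called, and PTPN2 was not called with the mean of its sets. Of 6 MHC class I-like genes, PROCR, the endothelial protein C receptor, was called higher at 1.67 and HFE, a regulator of iron uptake, at 0.59. HFE was just above the fold minimum and was not called without DTP array 2 or 3 or without parental array 2 or 3. The call was also lost with the mean of its 15 probe sets and with the brightest of them.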

How the data were processed

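The deposited values of 6 Affymetrix Human Genome U133 Plus 2.0 arrays were used, which are log2 intensities that the authors made with RMA (affy) and quantile normalization; no source used here names the tools' versions. Quantile normalization sets all arrays to a like distribution, so fold changes are relative. Probe sets were named through the platform annotation: 41091 had 1 symbol, 1801 several and 11721 none, and 62 controls were left out. DTP and parental arrays were compared with limma 3.58.1 (R 4.3.3), lmFit and eBayes, two-sided, with Benjamini-Hochberg adjustment over all 19775 genes or all 54613 probe sets. Intensities carry no counts, and 3 arrays a group limit the precision. Called genes, NLRC5, CIITA, CD74, HLA-DRA and RFX5 are given in full; from other lists, the rule names up to 3 called genes, and the interferon list, the markers and the gene pairs name more, chosen after their values were seen. The scripts were tested on simulated data. The members, lists, gene pairs and motifs were chosen with earlier results of these data known. Alternatives covered the arrays left out, normalization, centring, the probe set of a gene, dim or _x_at sets, the variance model, thresholds and Student's t-test.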

Additional observations from a re-analysis of the deposited data

How the results depend on the processing

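Of the alternatives run, each of the 12 class I and 2 class II calls kept its direction, and none was lost with an array left out. Where a setting removed all probe sets of a gene, it gave no value. Under a fold above 2, 6 class I genes, 1 class II gene and 17 probe sets were called higher, where 3.43% of all genes were. The share of all probe sets at that fold was not counted. Without _x_at sets 20 of the 59 probe sets left were called, where 8.09% of all genes were called higher. Without sets whose mean over all 6 arrays was below 7.29, 1 class II gene (HLA-DMA) was called, since the CTSS set was then left out. In that setting 10.9% of all genes were called higher. With no fold minimum, 2 class II genes and 4 probe sets were called lower, where 4754 of all genes were. The class I median was 0.94 and 0.95 with centring on 51 ribosomal protein genes and 11 spike-ins. It was 0.89 both without sets below 7.29 and with the brightest set, _x_at sets included. With the mean of sets it was 0.73, and with an array left out 0.77 to 0.83. Of the 14 class I genes read from a set without the suffix _x_at, 10 were called higher. The class II median was 0.11 under both centrings. Centring made 73.1% (ribosomal) and 73.5% (spike-ins) of all calls higher, against 56.9% here.

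Small differences changed sign: under ribosomal and spike-in centring, PSME1 was 0.080 and 0.084, HLA-DQA1 0.028 and 0.032, HLA-DQB1 0.11 and 0.11, HLA-DRA 0.13 and 0.13, HLA-DRB1 0.091 and 0.095, and HLA-DOA 0.11 and 0.11. Cyclic loess gave 0.040 for HLA-DQB1 and 0.029 for HLA-DRA, array weights 0.031 and 0.039. HLA-DQB1 was 0.020 without sets below 7.29 and with its brightest set, and CIITA -0.054 with the mean of sets. With an array left out, the ranges were -0.0079 to 0.12 for TAP2, -0.0032 to 0.075 for CIITA, -0.12 to 0.028 for HLA-DQB1, -0.091 to 0.081 for HLA-DRA and -0.068 to 0.0017 for HLA-DOA. HLA-E was not called by its brightest set (0.53); NLRC5 and HLA-G were called under both centrings, and HLA-F with its brightest set. The causes were not tested.

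Same-numbered arrays did not deviate together (r = -0.12, 0.02 and -0.06), and with the replicate block 12 class I and 2 class II genes and 34 probe sets were called higher, and no call of a listed gene changed.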
